A study of Sus scrofa with 4 samples.

Results

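Mural cells that carry little MYH11, here called pericyte-like members, were selected from single-cell libraries of pig meniscus on their own UMI counts. A barcode was a member when it had at least 200 genes, at least 3 UMIs of ACTA2, RGS5 and NOTCH3 together with at least 1 of RGS5 or NOTCH3, and at most 1 UMI of MYH11 and CNN1. It also had at most 1 UMI of the endothelial genes PECAM1, PLVAP and VWF, at most 2 of the macrophage genes C1QA, C1QB and C1QC, and under 0.5% of its UMIs from COL2A1. The rule found 1200 members among 27782 barcodes, with 402 in the lateral red library, 412 in the medial red, 151 in the lateral white and 235 in the medial white. Values of the 4 libraries are given below in that order. In the red zone the members carried pericyte and mural genes that the rule did not use. In the white zone the same rule drew a mixture, and those genes were found mainly in members with few matrix transcripts. The label sets the members apart from non-mural barcodes, but no pericyte marker was 2-fold higher in them than in MYH11-high mural barcodes in all 4 libraries.

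The series holds 4 libraries of dissociated meniscus (10x Genomics 3' chemistry), 1 for each meniscus (lateral, medial) and zone (red, white). All groups are Sus scrofa tissue freed of synovium and digested with pronase and then collagenase, and the labels name no strain, age, treatment or animal. Each zone therefore had 2 libraries, from a lateral and a medial meniscus. Because no animals are named, p-values describe the spread among these 4 libraries, which may be technical in part. The tests estimate that spread largely over all genes together and not from the 4 values of each gene alone.

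Pericytes are mural cells embedded in the basement membrane of capillaries and small venules, where they contact the endothelium. They depend on PDGF-B from the endothelium acting through the receptor PDGFRB, and on Notch signals received through NOTCH3. Vascular smooth muscle cells of larger vessels share RGS5, NOTCH3 and ACTA2 with them but are set apart by abundant MYH11 and CNN1. In the meniscus, vessels enter from the outer, red zone, and the inner, white zone is largely without them.

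Over all members, the depth was near that of their libraries. Their median was 1302 UMIs in lateral red, 1505 in medial red, 1311 in lateral white and 1423 in medial white, against 1464 to 1617 over all barcodes of a library, and their sums held 297431 to 719054 UMIs. Between 10 and 20 barcode sequences occurred in each pair of libraries, and none was a member in both. No doublet caller was run, and the rule limited mixed barcodes only through its upper limits on endothelial, macrophage, contractile and COL2A1 counts. The largest member held 10483 UMIs.

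The values that chose the members are a description. ACTA2, the smooth muscle actin, summed to 2354, 2349, 555 and 225 CPM (UMI counts scaled to the same total in each sum), RGS5, a regulator of G protein signalling, to 2498, 2064, 3766 and 3468 CPM, and NOTCH3 to 424, 438, 225 and 258 CPM. A UMI of RGS5 was present in 76.4%, 79.1%, 100% and 99.1% of members, and a UMI of ACTA2 in 80.8%, 82.8%, 38.4% and 22.6%. Membership thus rested on ACTA2 together with RGS5 in the red zone and mainly on RGS5 in the white zone. RGS5 lies at chr4:87286953-87340816 and CCL19 at chr10:32110366-32112529 in the RefSeq annotation of Sscrofa11.1. Members just inside the mural minimum, with 3 UMIs of ACTA2, RGS5 and NOTCH3, had a median of 11, 11.5, 1 and 1 UMIs of the other contractile genes, and barcodes just outside it, with 2, had 8.5, 8, 1 and 0. Members with 1 UMI of MYH11 or CNN1 had a median of 21.5, 20, 12 and 11 UMIs of these contractile genes, and barcodes with 2 had 22, 25.5, 21 and 12. In the red zone the cells on either side of each limit were thus alike in contractile UMIs, and the white zone cells at the mural minimum had nearly none.

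White zone members divided by their matrix content. Counted as matrix UMIs were those of the fibroblast and cartilage marker lists without COL2A1 (24 genes). Members with at least 3% matrix UMIs numbered 24 of 402 in lateral red and 49 of 412 in medial red, but 64 of 151 in lateral white and 123 of 235 in medial white. At most 2 UMIs of the 17 contractile genes outside the rule were found in 7, 5, 42 and 97 members, and 38 and 90 of those in the white libraries had at least 3% matrix UMIs. In the white zone members at or over 3% matrix, PDGFRB was at 84.5 and 83.7 CPM, KCNJ8 at 15.8 and 12.4 and TAGLN at 507 and 205, whereas in the members under 3% PDGFRB was at 435 and 538, KCNJ8 at 176 and 150.3 and TAGLN at 3037 and 3441. The plot of matrix share against contractile UMIs shows the separate set of white zone members with many matrix and few contractile UMIs.

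**Figure D1:**
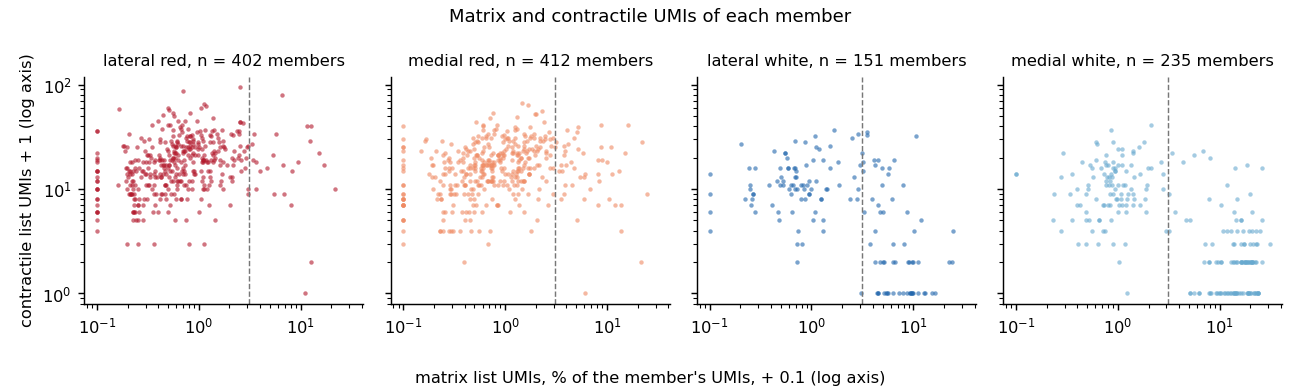
Each point is 1 member. The horizontal axis is the share of its UMIs from the matrix genes plus 0.1 (percent, log axis), the vertical axis its UMIs of the contractile genes outside the rule plus 1 (log axis), and the dashed line marks 3% matrix. The 2 white zone panels hold a second set at the lower right, with 38 and 90 members at or over 3% matrix and at most 2 contractile UMIs, against 2 and 2 in the red zone panels.

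RGS5 itself was detected in matrix cells of the white zone. Among barcodes with at least 3% matrix UMIs and at most 1 UMI of contractile genes, ACTA2 included, 0.923% carried RGS5 in lateral red (exact binomial 95% interval 0.493 to 1.57), 0.465% in medial red (0.213 to 0.881), 10.7% in lateral white (9.84 to 11.6) and 16.5% in medial white (15.6 to 17.6). Their RGS5 level was 6.62, 4.25, 115 and 192 CPM, and their NOTCH3 level 16.8, 14.5, 1.55 and 2.87 CPM. Endothelial barcodes held 10.9, 3.25, 5.3 and 15.8 CPM of RGS5 and macrophage barcodes 2.97, 2.62, 0 and 10.4. Both groups were limited by definition to at most 1 UMI of ACTA2, RGS5, NOTCH3, MYH11 and CNN1 together. Their low RGS5 was thus set in advance and is no measure of free RNA, whereas the matrix barcodes had no limit on RGS5. The part of free RNA in these values was not tested. In the white libraries 108 and 224 of the matrix barcodes had 3 or more RGS5 UMIs, enough to meet the mural minimum of the rule. For this reason the comparisons below are also given for the 378, 363, 87 and 112 members under 3% matrix UMIs. That limit was set after the data were seen, so the low matrix levels in these members are no result.

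The members made up 7.03% of the barcodes with at least 200 genes in lateral red (exact binomial 95% interval 6.38 to 7.73), 6.04% in medial red (5.48 to 6.63), 2.05% in lateral white (1.73 to 2.39) and 3.01% in medial white (2.64 to 3.41). The share in the red zone was 3.44 times that in the white zone in the lateral meniscus (interval 2.85 to 4.17) and 2.01 times in the medial (1.70 to 2.36). Members under 3% matrix gave ratios of 5.61 (4.43 to 7.17) and 3.71 (2.99 to 4.63). The shares were not tested across libraries, and the intervals cover counting error only. Mural barcodes with 2 or more UMIs of MYH11 and CNN1 numbered 266, 302, 27 and 14, so the pericyte-like members outnumbered them in every library, as they are counted by this rule. UMIs from cell cycle genes were rare, with 3 or more in 1, 4, 3 and 0 members. For the 0 of 235 members in medial white, 3 counts would be a share of 1.28%, which limits members with such UMIs and not cycling cells.

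**Figure D2:**
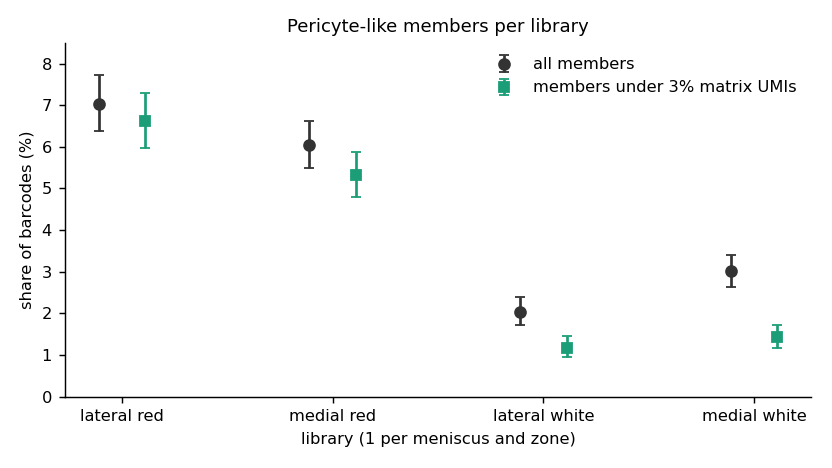
The vertical axis is the share of barcodes with at least 200 genes (percent), and bars are exact binomial 95% intervals. Circles show all members and squares those under 3% matrix UMIs. The 2 red zone libraries, at 7.03% and 6.04%, lie above the 2 white zone libraries, at 2.05% and 3.01%.

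Pericyte genes outside the rule were higher in the members than in all other barcodes of the same library. Of 2839 genes at 50 CPM or more, 3.03% were at least 2-fold higher and 0.247% at least 2-fold lower in the members in all 4 libraries, on the scale of CPM plus 20. Of 14 pericyte markers that met this level, CCL19 among them, 9 were higher and 0 lower, with a median log2 difference of 1.57 against 0.19 over all genes. Since the members were chosen on their counts these are descriptions without a test. KCNJ8, the pore of the ATP-sensitive potassium channel of mural cells, was at 116, 129, 74.0 and 51.2 CPM in members and 10.1, 11.7, 0.522 and 0.692 CPM in other barcodes. HIGD1B, a mitochondrial protein typical of pericytes, was at 155, 167, 145 and 118 against 15.7, 18.9, 4.77 and 3.6 CPM, and FHL5, a cofactor of CREB-driven transcription, at 385, 416, 67.2 and 57.9 against 67.2, 60.3, 2.31 and 0.415. The other barcodes here include the MYH11-high mural cells, and in the white libraries they held at most 4.77 CPM of these 3 genes (HIGD1B, lateral white). PDGFRB was at 568, 502, 212 and 212 CPM in members and at 167, 188, 49.1 and 71.8 CPM in stromal barcodes, which also express it. NDUFA4L2 and COX4I2, used as pericyte markers elsewhere, did not set the members apart, with NDUFA4L2 at 184, 178, 928 and 1174 CPM in members and 477, 157, 1282 and 1422 in stromal barcodes, and COX4I2 at 309, 384, 447 and 392 and 213, 138, 354 and 317.

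Signalling, contractile and basement membrane genes were also higher in the members than in other barcodes. Of 10 channel and cGMP genes at 50 CPM, 6 were 2-fold higher in members in all 4 libraries, among them TRPC6, a calcium channel, GUCY1A1 and GUCY1B1, the subunits of the nitric oxide receptor, and PDE5A, which breaks down cGMP. GUCY1B1 was at 433, 291, 195 and 75.7 CPM in members against 61.0, 52.6, 4.84 and 3.67 in other barcodes. EDNRA, a receptor for endothelin, was at 217, 238, 57.2 and 69.1 against 31.6, 31.1, 2.24 and 1.38 CPM. The contractile list had 6 of 10 genes higher (TAGLN, MYLK, SMTN, TPM1, TPM2, CALD1), and TAGLN, an actin-binding protein, was at 4042, 2862, 1426 and 1116 CPM. Of 11 basement membrane genes, 5 were higher. COL4A1, a chain of type IV collagen, was at 989.8, 866, 491 and 617 CPM in members against 234, 221, 20.8 and 57.3. ANGPT2, a ligand of the endothelial receptor TEK, was at 174, 195, 134 and 123 CPM against 36.8, 34.7, 3.65 and 3.81, and ADAMTS4, an aggrecan-cleaving protease, at 1708, 1879, 198 and 176 against 319, 333, 8.72 and 6.3. The log2 ratio of ADAMTS4 lay between 2.35 and 2.93 in the 4 libraries.

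Defining markers of other cell types were mostly at or near 0 in the members, apart from those of matrix cells. The endothelial list outside the rule summed to 406, 694, 134 and 102 CPM, with 12, 12, 6 and 6 of its 13 genes above 0. Its defining genes CDH5 (3.17, 1.39, 0 and 0 CPM) and CLDN5 (0, 1.39, 0 and 0 CPM) were at or near 0. FABP4, a fatty acid carrier, was at 293, 622, 47.1 and 22.3 CPM, most of the sum in the red libraries but not in the white. FABP4 was at 967, 1946, 101 and 13.5 CPM in endothelial barcodes, but also at 384, 435, 297 and 426 CPM in the MYH11-high mural barcodes. T cell, mast cell and B cell lists summed to at most 65.4 CPM, and of the Schwann cell list, which summed to 623, 732, 837 and 909 CPM, SOX10 was at 0 in all 4 libraries and ERBB3 made up a large part (325, 435, 592 and 568 CPM, with 283, 353, 641 and 718 CPM in stromal barcodes). The myeloid list summed to 1784 to 2521 CPM, nearly all CD74, which stromal barcodes held at 1572, 2173, 2304 and 1807 CPM. The haemoglobin gene HBB stood out in the medial red members at 382 CPM and was at 36.5, 382, 0 and 0 CPM over the 4 libraries. The fibroblast list was at 16211 and 23135 CPM in the red and 39323 and 100620.0 CPM in the white members, and the cartilage list at 704 and 589.7 against 8923 and 15878 CPM.

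The rule's limit on MYH11 and CNN1 carried other contractile genes with it. Against MYH11-high mural barcodes of the same library, 0.608% of 3124 genes were at least 2-fold lower in the members in all 4 libraries and 0.0% were at least 2-fold higher. MYL9, the regulatory myosin light chain, was at 224, 236, 131 and 134 CPM in members against 1192, 1824, 784 and 327. A2M, a protease inhibitor, was at 15.9, 16.7, 0 and 0 against 194, 254, 148 and 164 CPM, and ACTG2, an enteric-type smooth muscle actin, was lower as well. TAGLN, at 7754, 6498, 4748 and 3568 CPM in the MYH11-high barcodes, and the filamin FLNA, at 438, 451, 229 and 241 against 1179, 1469, 551 and 753 CPM, were lower in members as well, TAGLN by less than 2-fold in lateral red. Of the 14 pericyte markers at 50 CPM, 0 were 2-fold higher and 0 lower than in MYH11-high barcodes in all 4 libraries, with a median log2 difference of -0.24 against -0.09 over all genes. Of 14 contractile genes 0 were higher and 6 lower, with a median of -1.30. In the members themselves the contractile list summed to 12144, 9848, 4680 and 3477 CPM. The pericyte list, of which CCL19 is the largest part in the red zone, summed to 5756, 7251, 2464 and 2524 CPM in members and to 5228, 4050, 4112 and 3011 in MYH11-high barcodes. Values higher in members in all 4 libraries but short of 2-fold in some were, for example, those of ENPP2, which makes lysophosphatidic acid (53.9, 47.3, 111 and 35.6 against 22.7, 16.2, 21.2 and 0 CPM), and IGFBP5, an IGF-binding protein (431, 577, 1503 and 1492 against 297, 394, 827 and 556). The MYH11-high sums of the white libraries rest on only 27 and 14 barcodes. The plot of marker levels sets the members under and over 3% matrix beside the MYH11-high, stromal and endothelial barcodes.

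**Figure D3:**
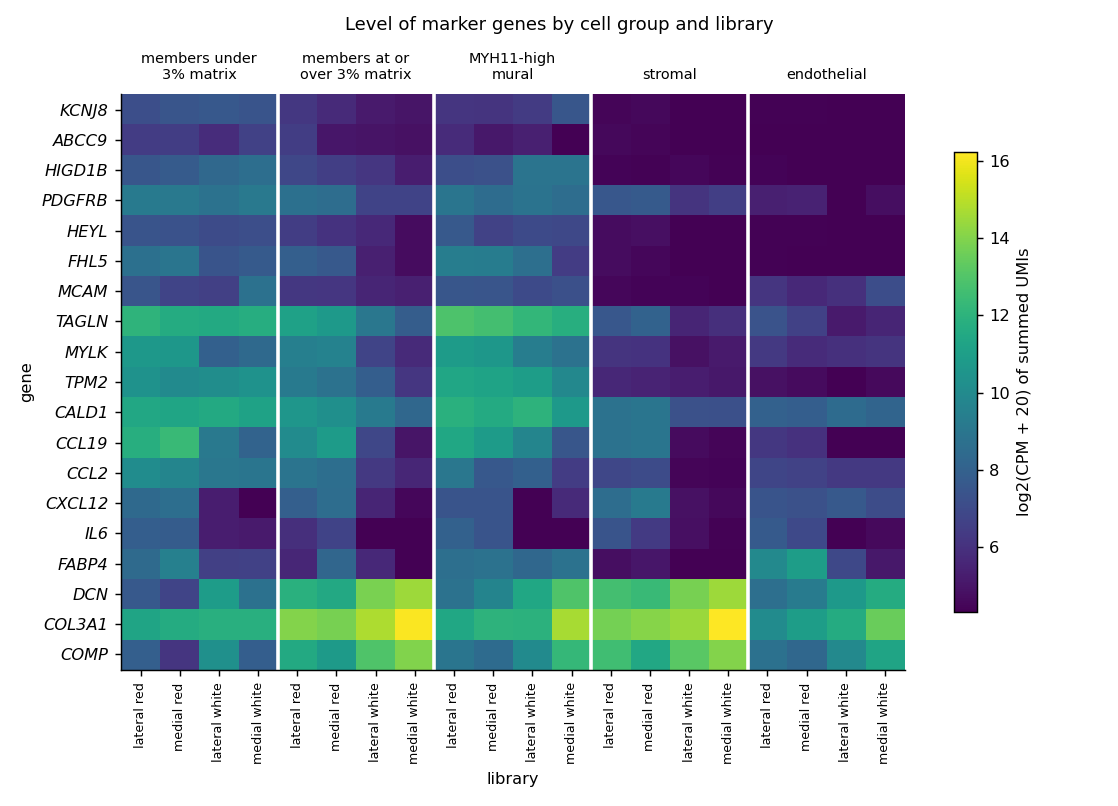
Colour gives log2(CPM + 20) of UMIs summed over the cells of each group and library. Rows are genes and columns the 4 libraries within each of 5 cell groups. KCNJ8 and HIGD1B are high in members under 3% matrix and low in stromal and endothelial barcodes, and DCN, COL3A1 and COMP are high in stromal barcodes and in the members at or over 3% matrix.

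CCL19, a chemokine that draws T cells and dendritic cells bearing CCR7, was high in red zone members and low in white ones. It was at 3233, 4664, 256 and 80.2 CPM in the members, at 2709, 1829, 848 and 164 CPM in MYH11-high mural barcodes and at 428, 481, 5.23 and 2.7 CPM in stromal barcodes. Both red libraries were above both white ones in each of these groups. Endothelial barcodes held 56.5, 45.5, 0 and 0 CPM and macrophage barcodes 23.8, 179.8, 0 and 0 CPM. At least 1 UMI was found in 256 of 402, 316 of 412, 43 of 151 and 29 of 235 members (63.7%, 76.7%, 28.5% and 12.3%). Thinning to 1000 UMIs left out barcodes below that depth, 123, 93, 56 and 67 of them members. In the thinned members the shares were 68.5%, 80.9%, 11.6% and 5.36%, so these do not cover the same members as the shares above. Among thinned endothelial barcodes, whose group had median depths of 1233, 1566, 1011 and 1354 UMIs before thinning, they were 2.61%, 2.27%, 0% and 0%. For the 0% values 3 counts would be a share of 4.35% and 2.00%, which limits barcodes with a UMI and not cells that express the gene. The members held 24.1%, 29.1%, 41.1% and 47.4% of all CCL19 UMIs of their library. Stromal barcodes held 24.1%, 26.6%, 23.8% and 34.2%, and barcodes in none of the cell groups held 32.5%, 32.7%, 12.4% and 10.5%. Among the 814 red zone members, the genes whose log-scaled counts were most like CCL19 by Pearson's r were SERPING1, a complement inhibitor (r = 0.48), FN1, fibronectin (0.40), CXCL12, a chemokine (0.39), IGFBP5 (0.39), APOE, a lipid carrier (0.38), C7, a late complement component (0.36), MYLK (0.36) and ACTA2 (0.36). These correlations across cells of 2 libraries share library and depth and are weak.

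Between the zones the members differed in many genes, and in fewer once members rich in matrix UMIs were left out. Counts were summed over the members of each library and tested with edgeR's quasi-likelihood test with the meniscus as second term, and p-values were adjusted by Benjamini-Hochberg over 5838 genes. A log2 fold change is white minus red. There were 771 genes higher (13.2%) and 791 lower (13.5%) in the white zone. DESeq2 called 350 genes in place of 1562, and edgeR called 911, 916 and 958 without lateral red, medial red or medial white. Without scaling factors for composition the split was 465 higher and 1335 lower, with the median gene at -0.29 in place of 0.01. Among the members under 3% matrix UMIs, 172 of 4676 genes were higher (3.68%) and 239 lower (5.11%). Of genes tested in both sets, 351 were called in the same direction in both, which is 27.2% of the calls in all members and 88.0% of those in the members under 3%. The members under 3% are also fewer cells, and those of the white zone were shallower than all white members. Under 3%, median UMIs were 1492.5, 1596, 820 and 917.5 in members with a CCL19 UMI and 983, 900, 857.5 and 978 in those without. Over all members of the lateral and medial white libraries they were 1311 and 1423. The test shares its estimate of spread across the genes of a fit, so a similar change and SE need not give the same p in both sets. The part of depth and of this sharing in the lower count was not tested. A lower sum can come from fewer expressing members or from less RNA per member, which these sums cannot tell apart.

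Chemokine genes fell in the white zone, in either set of members. Of 11 tested genes in the list of chemokines and lymphoid stroma, 9 were lower and 0 higher, with a median of -1.93 against 0.01 over all genes. Among the members under 3% matrix, 8 of 10 were lower and 0 higher, with a median of -2.59. CCL19 fell from 3233 and 4664 CPM in the red to 256 and 80.2 CPM in the white libraries (log2 fold change -4.39, SE 0.37, adjusted p = 1.21e-29), and its zone difference in members under 3% was -3.49 (SE 0.44, adjusted p = 2.63e-06). CXCL12, which retains leukocytes and progenitors through CXCR4, fell from 305 and 369.9 to 23.5 and 2.23 CPM (log2 fold change -4.64, SE 0.38, adjusted p = 1.87e-31). CCL2, which draws monocytes, fell from 1014 and 744 to 219 and 156 CPM (log2 fold change -1.93, SE 0.26, adjusted p = 1.16e-11), and in members under 3% matrix its change was -0.93 (SE 0.28, adjusted p = 0.0323). The cytokine IL6 was at 197, 179, 6.72 and 4.46 CPM with log2 fold change -4.77, SE 0.46, adjusted p = 3.27e-23. CXCL2, a neutrophil chemokine, fell over all members by a log2 change of -1.55, but its change in members under 3% was -0.52 (adjusted p = 0.346). For CCL19, CXCL12, CCL2 and IL6 both white libraries lay below both red ones. The stromal barcodes of the red zone also held more CXCL12 (360.5, 559.9, 9.16 and 4.16 CPM) and CXCL14 (1101, 1305, 115 and 13.4 CPM), which is itself among the matrix genes, than those of the white zone, and the part of free stromal RNA in the members' values was not tested. For CCL19 and CCL2 the members were above the stromal barcodes in all 4 libraries, with stromal CCL2 at 97.1, 112, 2.38 and 1.35 CPM.

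Complement and lipid genes also differed between the zones. Of 10 complement and acute phase genes, 6 were lower and 4 higher, and in members under 3% matrix 3 of 7 were lower and 1 higher. C7 was at 909, 801, 57.2 and 2.23 CPM (log2 fold change -4.82, SE 0.34, adjusted p = 1.70e-41), and C4A, the source of the C4 opsonin, at 431, 254, 6.72 and 4.46 CPM (log2 fold change -5.57, SE 0.43, adjusted p = 3.20e-35). C7 was detected in 206, 207, 8 and 1 members and C4A in 136, 107, 2 and 2. The 4 genes that rose were LCN2, CP, CLU and LBP, and of these CLU was also at 3759.5, 1634, 6485 and 9188 CPM in stromal barcodes. Of 15 lipid genes, 7 were lower and 2 higher, and in members under 3% matrix 5 of 13 were lower and 0 higher. FABP4 fell from 293 and 622 to 47.1 and 22.3 CPM (log2 fold change -3.49, SE 0.32, adjusted p = 9.72e-26), and the scavenger receptor CD36 from 52.3 and 119.6 to 0 and 2.23 CPM (log2 fold change -5.64, SE 0.73, adjusted p = 4.62e-13). APOE was at 1224, 1129, 128 and 60.1 CPM in all members and at 1249.8, 1135, 9.26 and 39.5 CPM in those under 3% matrix, with changes of -3.42 and -5.51 (SE 0.44, adjusted p = 1.27e-09). FABP4 was also higher in red than in white endothelial barcodes, as given above.

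Pericyte markers gave different counts in the 2 sets. Over all members, 8 of 16 tested genes were lower and 2 higher in the white zone, with a median of -0.86. Among the members under 3% matrix 3 were lower and 3 higher, with a median of 0.03. FHL5 fell in both sets, with log2 fold change -2.39, SE 0.28, adjusted p = 5.06e-16 in all members and log2 fold change -1.37, SE 0.28, adjusted p = 0.0018 under 3%. GJA4, a gap junction protein of small vessels, also fell in both, at 130.1, 213, 3.36 and 13.4 CPM with log2 fold change -3.97, SE 0.42, adjusted p = 2.59e-19. PDGFRB and HEYL, a Notch target, fell over all members, with log2 fold changes of -1.03 and -1.11, and were not called under 3% matrix, at -0.19 (adjusted p = 0.735) and -0.26 (adjusted p = 0.701). KCNJ8 was not called in either set, at -0.71 (adjusted p = 0.0558) and 0.25 (adjusted p = 0.699). HIGD1B was at -0.01 (adjusted p = 0.982) over all members and rose under 3% matrix (log2 fold change 0.96, SE 0.25, adjusted p = 0.0159), where it was at 163, 192, 306 and 372 CPM. CSPG4, the NG2 proteoglycan, rose in both sets from 19.0 and 23.6 to 67.2 and 75.7 CPM (log2 fold change 2.02, SE 0.39, adjusted p = 2.87e-06), but stromal barcodes held it at 38.8, 40.6, 72.3 and 78.7 CPM.

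Contractile and vasoactive genes gave many calls over all members and few under 3% matrix. In the contractile marker list 9 of 13 tested genes were lower and 0 higher over all members, but 2 of 11 were lower and 0 higher under 3% matrix. These 2 were MYLK, the kinase that starts smooth muscle contraction (1602, 1549.8, 231 and 316 CPM under 3%, with log2 fold change -2.50, SE 0.32, adjusted p = 2.63e-06), and SYNPO2, an actin-bundling protein (log2 fold change -1.61, SE 0.29, adjusted p = 3.63e-04). TAGLN under 3% matrix was at 4274, 3165, 3037 and 3441 CPM with a change of -0.16 (adjusted p = 0.854), and CALD1, caldesmon, at 2779, 2576, 2982 and 2286 CPM with -0.01 (adjusted p = 0.994). Both white libraries lay within or near the red range for these 2 genes. Of 11 vasoactive and G protein receptor genes, 8 were lower and 0 higher over all members and 1 of 7 was lower under 3%. That gene was EDNRB, the other endothelin receptor, at 203, 257, 33.6 and 15.6 CPM in all members (log2 fold change -3.02, SE 0.34, adjusted p = 1.78e-17) and with log2 fold change -1.99, SE 0.35, adjusted p = 3.74e-04 under 3%. EDNRA fell over all members with a log2 fold change of -1.55 and was at -0.56 (adjusted p = 0.235) under 3%. Of 14 channel and cGMP genes 7 were lower and 0 higher, and under 3% matrix 2 of 14 were lower, namely PDE3A, which breaks down cyclic nucleotides (log2 fold change -2.48, SE 0.52, adjusted p = 0.0019), and RYR2, a calcium release channel (log2 fold change -3.73, SE 0.98, adjusted p = 0.0149). Of 10 Notch genes, 4 were lower and 0 higher over all members (HEYL, HEY1, JAG1, NOTCH1), against 0 lower and 1 higher under 3%. Over all genes tested under 3% matrix, 5.11% were lower and 3.68% higher. The 1 of 7 vasoactive and 1 of 10 Notch genes are near these shares and are no result about those lists.

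Matrix genes were higher in the white members, which held more cells rich in matrix UMIs. All 12 tested cartilage matrix genes were higher, with a median of 4.76, and 17 of 31 fibrous matrix genes were higher and 2 lower. The white stromal and cartilage barcodes hold the same transcripts, and endothelial barcodes, which should lack them, held COMP at 416, 299.9, 964 and 2496 CPM and DCN at 381, 608, 1695 and 3198 CPM, higher in the white zone as well. The part of free RNA in the members' values was not tested. Under 3% matrix 4 of 4 cartilage genes and 7 of 25 fibrous genes were still higher, with COMP at 224, 51.0, 1232 and 214 CPM, below its level in endothelial barcodes in 3 of the 4 libraries. Genes of hypoxia and glycolysis were higher in 13 of 20 cases and lower in 2 over all members, and higher in 6 of 19 and lower in 1 under 3%. GAPDH, a glycolytic enzyme, rose over all members (log2 fold change 1.43, SE 0.33, adjusted p = 1.86e-04) and was at 0.69 (adjusted p = 0.214) under 3%. ENO1, enolase, rose in both sets, with log2 fold change 1.86, SE 0.26, adjusted p = 7.46e-11 in all members and log2 fold change 0.92, SE 0.25, adjusted p = 0.0203 under 3%.

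Some genes rose in white members and stood at or above the other white barcodes as a whole. That level was a condition of naming for each gene given here except LAMC3. CYP26B1, which degrades retinoic acid, was at 66.6, 38.9, 249 and 209 CPM in members (log2 fold change 2.45, SE 0.27, adjusted p = 3.64e-18), at 69.8, 29.9, 528 and 593 CPM in members under 3% matrix (log2 fold change 3.57, SE 0.29, adjusted p = 1.82e-09) and at 13.3 and 14.3 CPM in the other barcodes of the white libraries. COL15A1, a collagen of the vascular basement membrane zone, was at 90.4, 73.7, 619 and 978 CPM (log2 fold change 3.56, SE 0.28, adjusted p = 4.26e-35) with stromal barcodes at 302, 268, 516 and 860.4 CPM. CCN3, a matricellular protein, was at 116, 72.3, 363 and 541 CPM (log2 fold change 2.58, SE 0.26, adjusted p = 8.86e-22), and at 75.2, 14.1, 583 and 1131 CPM in members under 3%. AQP1, a water channel known from endothelium and other cells, rose from 69.8 and 68.1 to 249 and 336 CPM (log2 fold change 2.38, SE 0.26, adjusted p = 1.91e-18), with endothelial barcodes at 1373, 1077, 1827 and 2902 CPM. In the white members the endothelial list summed to 134 and 102 CPM, with 6 of 13 genes above 0 in each library. The part of free endothelial RNA in the AQP1 values was not tested. ECM1, an extracellular matrix protein, was at 92.0, 111, 245 and 557 CPM (log2 fold change 2.22, SE 0.25, adjusted p = 1.62e-16), and LAMC3, a laminin chain, at 42.8, 6.95, 74.0 and 60.1 CPM (log2 fold change 1.91, SE 0.39, adjusted p = 1.40e-05) with 4.11, 1.79, 1.71 and 0.969 in other barcodes. SERPINE2 and BAMBI, inhibitors of serine proteases and of TGF-beta signalling, rose by 2.12 and 2.07 on the log2 scale. In the members under 3% matrix these 8 genes were called again with larger changes, for example 4.34 for CCN3, 3.89 for AQP1 and 3.03 for LAMC3. By contrast GLI3, a Hedgehog transcription factor, and EIF4EBP2, a translation repressor, rose over all members (2.19 and 1.92) and were at 0.06 (adjusted p = 0.97) and 0.64 (adjusted p = 0.515) under 3%. GXYLT2 and PDE4DIP, a xylosyltransferase and a phosphodiesterase-binding protein, rose by 3.27 and 3.20 on the log2 scale and were too low under 3% to be tested there. UBE2E2, a ubiquitin-conjugating enzyme, rose by 1.70 (SE 0.34, adjusted p = 1.01e-05), and DESeq2 did not call it (adjusted p = 0.11).

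**Figure D4:**
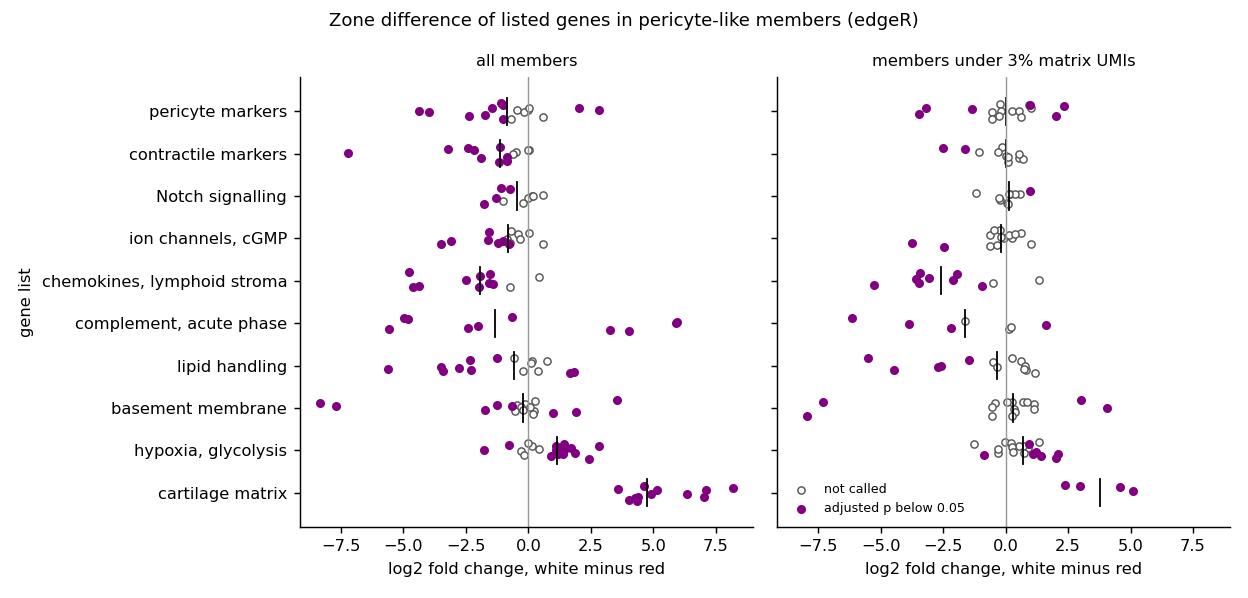
Each point is a gene of a list, placed at its log2 fold change (white minus red) from edgeR, for all members on the left and members under 3% matrix on the right. Filled points had an adjusted p below 0.05, and black lines are list medians. The chemokine medians are -1.93 and -2.59, whereas the contractile median moves from -1.13 to -0.01.

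Other genes that fell in the white zone had varied functions. STMN2, a microtubule regulator, was at 190.3, 104, 0 and 0 CPM (log2 fold change -9.08, SE 0.87, adjusted p = 4.44e-23). Since both white libraries held 0 UMIs, this fitted value is no bound on the fold, and DESeq2 did not call the gene (adjusted p = 0.363). PLAU, the urokinase protease, fell from 685 and 599 to 13.4 and 29.0 CPM (log2 fold change -4.52, SE 0.34, adjusted p = 5.89e-38), and RRAD, a small GTPase that restrains calcium channels, from 1375 and 1129 to 121 and 57.9 CPM (log2 fold change -3.57, SE 0.30, adjusted p = 1.16e-29). CPE, a prohormone-processing enzyme, was at 176, 242, 20.2 and 8.91 CPM, LGI4 at 88.8, 164, 13.4 and 6.68 CPM and GCNT2, a glycosyltransferase, at 143, 193, 6.72 and 4.46 CPM, with log2 changes of -3.66, -3.48 and -4.66. For each of these 6 genes both red libraries were above both white ones, though a fall in both menisci was a condition of naming. Each of the 6 remained called in members under 3% matrix. ADAMTS4 fell from 1708 and 1879 to 198 and 176 CPM (log2 fold change -2.97, SE 0.30, adjusted p = 6.23e-21). Of 16 transcription factors of mural cells 8 were lower and 3 higher. Under 3% matrix 1 of 15 was lower, NR2F1 (log2 fold change -3.02, SE 0.85, adjusted p = 0.0233), and 1 higher, SHOX2, at 188, 144, 417 and 498 CPM (log2 fold change 1.50, SE 0.25, adjusted p = 1.97e-04). Over all genes tested under 3%, 5.11% were lower and 3.68% higher, so these counts are near that share and are no result about the list. EBF1 and NR2F2, at 372, 281, 259 and 332 and 996, 989, 685 and 997 CPM under 3%, had changes of -0.10 (adjusted p = 0.873) and -0.23 (adjusted p = 0.692) there.

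Between the menisci few genes were called, and how far the calls depend on single libraries could not be tested. Of 5838 genes 13 were higher (0.223%) and 6 lower (0.103%) in the medial members, and none of those with at least 50 CPM also kept 1 direction in both zones and stood at or above the other barcodes. DESeq2 called 2. In edgeR 0 genes were called when the zone term was left out of the fit (11 genes at an unadjusted p below 0.05). The fits with 1 library left out also had no zone term and kept 1 library of 1 meniscus. They therefore cannot tell a meniscus difference from a zone difference. The called genes included HBB (36.5, 382, 0 and 0 CPM), whose medial red value stood alone, and the matrix gene CILP (1.59, 15.3, 282 and 1559 CPM). The largest differences that met the rule apart from its p are given as values only. TRIB3, a stress-induced pseudokinase, was at 49.2, 93.2, 33.6 and 66.8 CPM with a medial minus lateral log2 difference of 0.99 (adjusted p = 0.336). GJA4, HBS1L and PRKD3 were at 0.84, 0.79 and 0.75. In the other direction ZGPAT was at -1.25 (adjusted p = 0.138), and PEG10, ANKRD13A, WFDC1 and FAM162B were at -0.96, -0.94, -0.90 and -0.90. CCL19 was at -0.28 (adjusted p = 1). It was higher in medial than in lateral red members and lower in medial than in lateral white members.

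Members with and without CCL19 were compared within each library. Counts were summed over CCL19-positive members (at least 1 UMI) and CCL19-negative members of each library and tested with edgeR with the library as block over 3897 genes. In the positive members 18 genes were higher (0.462%) and 24 lower (0.616%). CCL19, whose call the split itself made, is 1 of the 18. Without lateral red, medial red or lateral white the 42 calls became 15, 14 and 16. A missing UMI is not absence, and the states also differed in depth. Median UMIs were 1542, 1716, 866 and 937 in positive and 1023, 933, 1501 and 1521 in negative members, so the positive members were the deeper in the red and the shallower in the white zone. Their median matrix share was 0.606%, 0.847%, 0.693% and 0.669%, against 0.367%, 0.218%, 3.38% and 7.81%.

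Of the genes higher in the positive members 6 besides CCL19 were called again under 3% matrix, and of the genes lower in them none was, several of them being too low there to be tested. FMO2, a flavin monooxygenase, was at 229, 149, 254 and 87.0 CPM in positive and 49.8, 27.7, 22.5 and 14.5 CPM in negative members (log2 fold change 2.50, SE 0.32, adjusted p = 5.79e-04). APOE was at 1523, 1266, 307 and 289.8 against 481, 359.7, 67.4 and 41.0 CPM (log2 fold change 1.87, SE 0.24, adjusted p = 5.79e-04), and CXCL14, a stromal chemokine, at 692, 591, 507 and 29.0 against 243, 101, 49.4 and 21.7 CPM (log2 fold change 2.09, SE 0.32, adjusted p = 0.0027). SYTL2, a vesicle transport protein, rose by 1.70 (SE 0.28, adjusted p = 0.0052). The positive sum of medial white holds only 34502 UMIs from 29 members. Its values, such as CXCL14 at 29.0 CPM, rest on very few UMIs. These 4 genes were higher in the positive members of each library, which was a condition of naming here, for KCNJ8 below as well. They were called again under 3% matrix, at 2.19 (SE 0.32, adjusted p = 0.0035), 1.65 (SE 0.23, adjusted p = 0.0029), 1.63 (SE 0.30, adjusted p = 0.0299) and 1.56 (SE 0.29, adjusted p = 0.0299). CXCL12 and ARHGAP28, named after their values were seen, were also called in both sets, with 2.18 and 1.55 in all members. KCNJ8, higher in positive members of each library (138, 141, 174 and 145 against 60.9, 64.6, 40.4 and 43.4 CPM), rose by 1.34 (SE 0.29, adjusted p = 0.0348) and was at 0.91 (adjusted p = 0.271) under 3%, and its call was lost in 7 of the alternatives. GPM6B, GPC3, OLFML2B, RALGPS2 and SERPING1 rose by 1.19, 1.11, 1.40, 1.87 and 1.11 on the log2 scale. Their calls were lost in 9, 8, 4, 5 and 4 alternatives, in each case under 3% matrix and without medial red.

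The genes that fell were led by cartilage matrix. Of 11 tested cartilage matrix genes 6 were lower and 0 higher, with a median of -1.69 against -0.03 over all genes. HAPLN1, which links aggrecan to hyaluronan, was at 35.6, 21.3, 360.4 and 203 against 83.0, 27.7, 1222 and 731 CPM (log2 fold change -1.69, SE 0.31, adjusted p = 0.0143), and SOX9, the chondrocyte transcription factor, at 13.3, 13.1, 80.1 and 87.0 against 55.3, 18.4, 229 and 352 CPM (log2 fold change -1.81, SE 0.35, adjusted p = 0.0202). CILP2, COL11A1, FMOD, PRELP, SCRG1 and SPP1 fell with log2 fold changes of -1.79, -2.08, -1.45, -1.49, -2.16 and -2.11. Under 3% matrix 8 genes were called, CCL19 itself among them, and 0 were lower (208 of 2150 genes had an unadjusted p below 0.05). There CILP2, HAPLN1 and FMOD stood at 0.48, 0.05 and 0.30. NET1, a guanine nucleotide exchange factor for RhoA, fell with a log2 fold change of -2.71 (SE 0.35, adjusted p = 5.79e-04), and FIBIN, TSPAN12 and HMOX1 with -2.12, -1.84 and -1.66. The negative members of the white libraries were those with the higher matrix share given above, and the plot of CCL19-positive against CCL19-negative members shows each library.

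**Figure D5:**
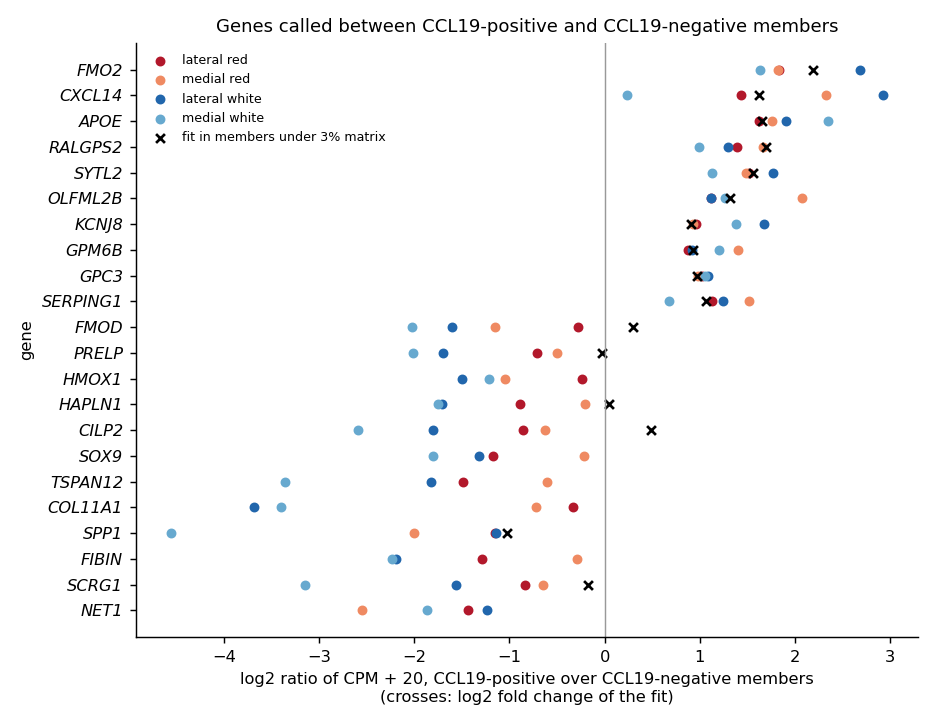
For each gene, coloured points give the log2 ratio of CPM plus 20 in CCL19-positive over CCL19-negative members of 1 library, and crosses the log2 fold change of the edgeR fit in members under 3% matrix where the gene was tested. Points of the 4 libraries lie on the same side of 0 for each gene because the genes were chosen for that. The crosses of CILP2, HAPLN1 and FMOD lie on the other side.

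The zone difference of the members was set against that of MYH11-high mural barcodes by the interaction of zone and group, with the library as block (edgeR, 6878 genes). The difference was larger in the members for 119 genes (1.73%) and smaller for 25 (0.363%), where the median gene lay at 0.34. Without scaling factors the split was 53 and 87, with the median at -0.15. CCL19 had a larger drop in the members than in the MYH11-high barcodes, where it was at 2709, 1829, 848 and 164 CPM (log2 fold change -1.92, SE 0.35, adjusted p = 6.95e-06). DESeq2 did not call it (adjusted p = 0.0843), nor was it called without lateral red, medial red or lateral white (adjusted p = 0.149, 0.223 and 0.587). FABP4 was at 384, 435, 297 and 426 CPM in the MYH11-high barcodes and also had a larger drop in the members (log2 fold change -2.98, SE 0.47, adjusted p = 1.18e-07). In members and MYH11-high barcodes under 3% matrix 8 genes were called, of which FABP4 was the 1 with a smaller value, at -2.37 (adjusted p = 0.0378), and CCL19 was at -1.38 (adjusted p = 0.382). The FABP4 call was lost without lateral red (adjusted p = 0.102). COL15A1 was called in both sets, at 2.07 and 2.56, and lost the call without lateral red (adjusted p = 0.124) or medial red (0.172). The white MYH11-high sums rest on 47176 and 30550 UMIs from 27 and 14 barcodes. Of these, 2 and 5 had at least 3% matrix UMIs, so the fit under 3% rests on fewer.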

How the data were processed

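Cells of 4 pig meniscus libraries were counted by the authors with Cell Ranger 6.1.2 on Sscrofa11.1, per the submitters' processing notes, and what they deposited are raw UMI counts, with genes in rows and barcodes in columns. Of 21280 features 14808 had a symbol in the files, 688 gained one from the reference table and 5784 were kept by identifier. Members were chosen by the stated limits on their counts, and the members and gene lists were chosen with earlier results of these data known. No doublet caller was run.

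UMI counts of members were summed per library and tested with edgeR 4.0.16 (quasi-likelihood F test, TMM scaling, filterByExpr, R 4.3.3) with terms for meniscus and zone, which leaves 1 residual degree of freedom, and Benjamini-Hochberg adjustment at 0.05. The interaction with MYH11-high mural cells and the CCL19 split had the library as block, with 2 residual degrees of freedom for the interaction. The scripts were tested on simulated data. CPM was computed over all UMIs of a sum, and descriptive ratios add 20 CPM. Intervals are exact binomial at 95% and cover counting error only. Thinning was to 1000 UMIs and left out barcodes below that depth.

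Named were, per test, the 12 largest called changes in each direction with a mean of 50 CPM and 1 direction in both pairs of libraries. For the CCL19 split the direction had to hold in all libraries. A level at or above the other barcodes where higher was also required, except in the CCL19 split. With fewer than 6 such genes, the 5 largest in each direction without a call were given. CCL19 and up to 4 genes a list with the lowest p were added, as were the 25 genes with the largest smallest ratio to other barcodes, 12 in each direction against MYH11-high cells, and the 8 most like CCL19. Other list genes were named after their values were seen, and some genes that the rule names are not reported here. Alternatives were DESeq2 1.42.0, no TMM, no filter, other member limits and no replicate block (no second term in the zone and meniscus fits). Others were each library left out and, added after seeing the data, members under 3% matrix UMIs. The zone and meniscus fits with a library left out also had no second term.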

Additional observations from a re-analysis of the deposited data

Results flagged for a closer look

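Among the named genes there were 23 for which the zone difference (white minus red) of the pericyte-like members differed from that of the MYH11-high mural cells by the interaction test of edgeR. The log2 interaction was positive for PDE4DIP (3.96), COL15A1 (2.07), GLUL (1.91), FBXO32 (1.83), JMJD1C (1.58), DSTN (1.43), DST (1.41), ARF4 (1.39), SSPN (1.31), UTRN (1.18) and CDH13 (1.17). It was negative for FABP4 (-2.98), C7 (-2.75), CPE (-2.67), STUM (-2.50), LRRC10B (-2.34), FMO2 (-2.31), RRAD (-2.29), PRKAR2B (-2.16), PAWR (-1.98), CCL19 (-1.92), SLC7A2 (-1.67) and HIGD1B (-1.62). The median over all genes tested was 0.34. Each of these genes lost its call under at least 1 alternative, FABP4 under 1 and GLUL under 9, and the 144 calls became 3 without lateral red and 21 under DESeq2. The white MYH11-high sums hold 27 and 14 barcodes, of which 2 and 5 were at or over 3% matrix UMIs. In the fit under 3% matrix, which rests on fewer barcodes, COL15A1, FBXO32, DSTN and FABP4 were the genes of this list still called.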

How the results depend on the processing

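Counted over pairs of a named gene and an alternative, 282 zone pairs kept direction and side of the threshold and 4 lost the call. Among the 4 were UBE2E2 and STMN2 under DESeq2 (adjusted p = 0.11 and 0.363). For the interaction 126 pairs kept and 126 lost the call. For the CCL19 split 143 kept, 87 lost and 3 reversed. The alternative of at least 500 UMIs and at most 20% mitochondrial removed no member. Its 24, 23 and 22 unchanged pairs in these 3 comparisons therefore add no support. The named genes were chosen as the largest called changes, so these counts do not cover the other calls. The count of zone calls (1562) was 350 under DESeq2, 411 under 3% matrix, 844 with a mural minimum of 5 and 911 to 1483 with 1 library left out (911 without lateral red, 916 without medial red and 958 without medial white). Meniscus calls (19) were 2 under DESeq2, 10 under 3% matrix and 9 with the minimum of 5. Meniscus fits with 1 library left out had no zone term and kept 1 library of 1 meniscus. Their counts therefore cannot show whether the calls depend on single libraries. Without the zone term, meniscus calls were 0 in edgeR, with 11 genes at an unadjusted p below 0.05 (DESeq2 with the zone term made 2 calls). Without the meniscus term, which pairs libraries of 1 meniscus, zone calls were 1383. Interaction calls (144) were 21 under DESeq2, 8 under 3% matrix, 73 with the minimum of 5 and 3 to 167 with 1 library left out (3 without lateral red and 28 without medial red). CCL19 calls (42) were 8 under 3% matrix, 13 with the minimum of 5, 20 without TMM, 75 without the filter and 14 to 33 with 1 library left out (15, 14 and 16 without lateral red, medial red and lateral white). The red to white ratios were 2.79 and 1.61 with MYH11+CNN1 of 0, 5.61 and 3.71 under 3% matrix, and 5.96 and 3.73 thinned, lateral first. Reversed were the meniscus values of GJA4 (-2.11 to 4.79 with 1 library left out, lowest without medial red, and -0.08 without lateral white) and PEG10 (-1.97 to 0.10, highest without lateral white). That of CCL19 also reversed (0.49 without the zone term, 2.98 without lateral red, 1.47 without medial white, against -4.16 without medial red). None of these fits held the zone term, so the reversals may reflect the zone as well as the meniscus. Under 3% matrix the CCL19 split of CILP2 (0.48), HAPLN1 (0.045) and FMOD (0.30) reversed. The causes were not tested. Each zone has 1 library per meniscus, so the zone fit leaves 1 residual degree of freedom. Its p-values therefore rest largely on a spread estimated over all genes. The 151 and 235 white members limit its depth.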
